A study of Mus musculus with 6 samples.

Results

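Heme breakdown and hemoglobin scavenging were described here through 8 genes, Hmox1, Hmox2, Blvra, Blvrb, Hp, Cd163, Slc48a1 and Flvcr1, in mouse gastrocnemius muscle. The genes were chosen by name, with earlier results of these data known, so their counts beside all genes tested only describe. They were found through the platform's gene symbols, which gave 10 probe sets, 2 each for Slc48a1 and Flvcr1 and 1 for each other gene. Where a gene had more than 1 probe set, the brightest by mean log2 signal stood for it. All 8 genes were among the 11526 genes above the signal filter, of 18193 genes with a symbol, and none of the 10 probe sets had a value at the signal floor of 26.4.

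Heme is freed when hemoglobin, myoglobin and other heme proteins are broken down. Heme oxygenase opens the ring and releases iron, carbon monoxide and biliverdin, which biliverdin reductase turns into bilirubin. Hemoglobin that escapes from red cells is bound by haptoglobin, and the complex is taken up by macrophages through the receptor CD163. HRG1, the product of Slc48a1, carries heme out of the lysosome into the cytosol, and FLVCR1 is known as a heme exporter of the cell membrane.

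The study used male C57BL/6J mice that from 6 weeks of age ate 1 of 3 diets for 15 weeks. The HF+SFC+ALA diet was a high-fat diet (60 kcal% fat) with SFC and ALA added. SFC is sodium ferrous citrate, a salt of iron, and made up 0.023% of the diet by weight. ALA is 5-aminolevulinic acid, from which heme is built, and was given as its phosphate at 0.2%. The HF diet was the same high-fat diet without these additions, and the Control diet held 10 kcal% fat. Muscle was taken after 24 h or 4 h without food, and each of the 6 combinations was 1 array of RNA pooled within the group, with no replicate array. The size of each pool is not stated in the labels, and their age of 21 months does not match the feeding scheme. In such bulk tissue fewer cells of a type and less RNA per cell cannot be told apart.

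Each array had the same trimmed mean signal (500.004), and the medians ran from 63.2 to 69.7. All 13 skeletal muscle markers were above the filter, and their summed signal was 500355 to 578554 at 24 h and 490987 to 542901 at 4 h. The 4 probe sets that carry several adult hemoglobin symbols were looked at after the data were seen. The beta globin one ran from 17869 to 23728, a span of 1.33-fold over the pools, and the 3 alpha globin ones spanned 1.22-fold to 1.58-fold. On all 4 the HF pool at 24 h was the highest. Neutrophil markers were low: of 8 on the array 2 were above the filter, and the summed signal was 463 to 482 at 24 h and 499 to 641 at 4 h.

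The spread over pools separated the 8 genes. Over all genes tested the median span between the highest and the lowest pool was 0.50 on the log2 scale. Hp spanned 4.69, or 25.8-fold, and 0 of the other genes tested had a larger span. Hmox1 spanned 1.38, Blvrb 1.21 and Cd163 0.94, and Flvcr1 spanned 2.00-fold. Blvra spanned 0.30 and Slc48a1 0.17. Hmox2 spanned 0.09, and 0.286% of genes tested spanned less.

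**Figure D1:**
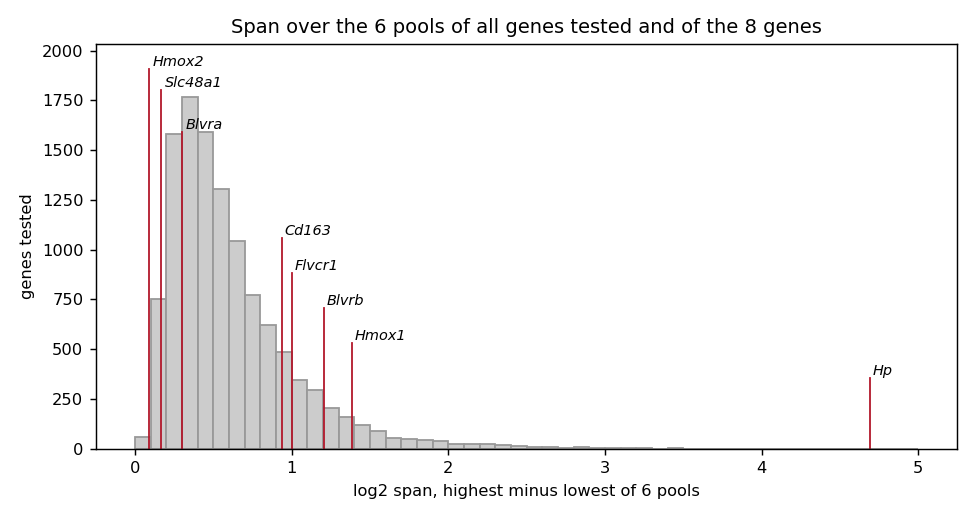
The horizontal axis gives the log2 span of a gene, its highest minus its lowest pool, and grey bars count genes tested in bins of 0.1. Red lines mark the 8 genes: Hmox2 (0.09) stands at the low end of the distribution and Hp (4.69) beyond all other genes tested.

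RefSeq promoter windows (build GRCm38.p6, 250 bases before to 50 after a start site) were found for 5 of the 8 genes: Hmox2, Blvra, Blvrb, Cd163 and Flvcr1. Those of Cd163 and Flvcr1 are shown as examples. Cd163 passed for fasting, while Flvcr1 differed between diets only in single pairs of pools and did not pass. Blvrb, whose single pairs differed more, is not shown. Capitals mark matches to the motifs searched on both strands.
Cd163, chr6:124304401-124304700, strand +: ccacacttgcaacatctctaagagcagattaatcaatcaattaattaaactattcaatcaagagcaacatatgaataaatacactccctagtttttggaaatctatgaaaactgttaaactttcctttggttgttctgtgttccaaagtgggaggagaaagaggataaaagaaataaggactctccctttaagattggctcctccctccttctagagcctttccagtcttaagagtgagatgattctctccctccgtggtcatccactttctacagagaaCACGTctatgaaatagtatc
Flvcr1, chr1:191026141-191026440, strand -: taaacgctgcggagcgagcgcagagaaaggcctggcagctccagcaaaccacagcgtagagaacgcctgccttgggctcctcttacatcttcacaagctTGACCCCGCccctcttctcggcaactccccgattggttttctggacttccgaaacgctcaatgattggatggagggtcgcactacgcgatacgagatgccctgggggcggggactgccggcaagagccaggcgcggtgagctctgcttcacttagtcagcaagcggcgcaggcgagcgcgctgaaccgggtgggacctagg
The Cd163 window has 38% G and C and 2 CpG, against 61.7% and 25 CpG in the Flvcr1 window, beside a median of 52.7% G and C over 32851 windows. The Flvcr1 window holds 1 match to TGACNNNGC, the core letters of the antioxidant response element bound by NRF2 and BACH1, at position 100 of 300. The Blvra window holds 1 match to it at position 202, and 12.4% of all windows hold at least 1. The capitals in the Cd163 window are the 5 letters of the hypoxia element ACGTG, read on the opposite strand, which 19.6% of windows hold. The second Blvrb window holds the same element at position 128. No other match was found in the 8 windows of these genes for TGAGTCA (AP-1), CACGTG (E-box), TTCNNNGAA (STAT), TTGCNNAA (C/EBP) or GTAAACA (FoxO), which 5.20%, 7.15%, 8.30%, 10.8% and 3.65% of all windows hold. These matches only describe the letters.

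At 24 h of fasting Hmox1 rose, and Hp and Cd163 fell, against 4 h. The other 5 genes did not pass. With limma 3 of 8 passed an adjusted p of 0.05, beside 2.41% of all genes tested in either direction (1.49% higher and 0.92% lower). The median log2 difference of the 8 was -0.03, beside 0.01 over all genes tested. Each log2 difference below is from the additive fit of diet and fasting time over 6 pools, with its standard error. That error rests on a variance moderated over all genes tested, not on the gene's own spread alone.

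Hmox1 encodes the inducible heme oxygenase. Its signal was 223 in HF+SFC+ALA, 255 in HF and 338 in Control pools at 24 h, against 129.8, 129.5 and 209 in the same diets at 4 h. Every pool at 24 h was above every pool at 4 h, as held in either direction for 18.9% of genes tested. The fitted difference was 0.82 ± 0.17, 1.76-fold, with an adjusted p of 0.0458. Single diets gave 0.78, 0.98 and 0.69 in the same order. Macrophages are a known source of Hmox1, and the summed signal of 17 macrophage markers was 3533 to 6520 at 24 h and 4026 to 5885 at 4 h. Of the 14 of these tested 0 passed (5 positive and 9 negative differences), and 0 to 2 of the 17 were at the floor in a pool. Their part in the difference of Hmox1 was not tested.

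Hmox2 encodes the constitutive heme oxygenase. Its signal was 2550, 2692 and 2585 at 24 h in HF+SFC+ALA, HF and Control pools, against 2625, 2562 and 2714 at 4 h. These ranges overlapped almost fully. The fitted difference was -0.01 ± 0.07 (adjusted p = 0.948), and its 95% interval ran from -0.18 to 0.15.

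Biliverdin reductase is encoded by Blvra, the main adult form, and Blvrb, which also serves as a flavin reductase. Blvra had 717, 884 and 763 at 24 h in HF+SFC+ALA, HF and Control pools, against 846, 738 and 860 at 4 h (-0.05 ± 0.12, adjusted p = 0.876). Blvrb had 145, 245 and 106 at 24 h, against 199.5, 135 and 189 at 4 h. In the HF pools Blvrb was higher at 24 h by 0.85, whereas the difference was -0.47 in HF+SFC+ALA and -0.83 in Control. The diets thus differed in sign, and the fit over all of them gave -0.15 ± 0.30 (adjusted p = 0.853, 95% interval -0.83 to 0.53). Blvra had the same signs at a smaller size, at 0.26 in HF, -0.24 in HF+SFC+ALA and -0.17 in Control.

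Hp encodes haptoglobin, the plasma protein that binds free hemoglobin and is made mainly by liver and also by adipocytes. Its signal was 115, 1921 and 114 at 24 h in HF+SFC+ALA, HF and Control pools, against 783, 2940 and 317 at 4 h. Within each diet the pool at 24 h was the lower one, but the HF pool at 24 h lay above the HF+SFC+ALA and Control pools at 4 h, so the fasting times overlapped. The fall was -1.62 ± 0.31 (adjusted p = 0.0337), with -2.77 in HF+SFC+ALA, -0.61 in HF and -1.47 in Control. The residual standard deviation of Hp itself was 0.77 on the log2 scale, larger than the moderated one behind this error. The same holds for the ± 0.38 of Hp in the diet comparisons. From its own spread alone Hp would have wider errors. Adipocyte markers stood beside the fall of Hp: of 10 tested 0 passed, 6 had negative differences and their median was -0.22. Among the 6 were Retn (-1.52, adjusted p = 0.0893), Lep (-0.99, 0.0735), Cidec (-0.80, 0.0566) and Adipoq (-0.68, 0.0838). The other 4 had positive differences: Lipe (0.51, adjusted p = 0.117), Fabp4 (0.21, 0.134), Plin4 (0.18, 0.410) and Car3 (0.0048, 0.981). The summed signal of the 10 was 83014 to 96637 at 24 h and 77297 to 92215 at 4 h, mostly of Car3 and Fabp4. Lep and Retn were at the floor in the Control pool at 24 h. The part of adipocyte RNA in the fall of Hp was not tested.

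Cd163 is the receptor of tissue macrophages for the haptoglobin and hemoglobin complex. Its signal was 241, 249 and 245 at 24 h in HF+SFC+ALA, HF and Control pools, against 396, 461 and 333 at 4 h. The 3 pools at 24 h lay close together. All were below those at 4 h, and the fasting times were apart in either direction for 18.9% of genes tested. The fitted difference was -0.68 ± 0.15, 1.60-fold lower, with an adjusted p of 0.0491, just inside the threshold. The differences were -0.72 in HF+SFC+ALA, -0.89 in HF and -0.45 in Control. Of the macrophage markers given above, Csf1r and Lyz2, the brightest, stood at -0.03 and -0.03, and the median of the 14 tested was -0.08.

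Slc48a1 encodes the heme transporter HRG1. Its signal was 1838, 1926 and 2065 at 24 h in HF+SFC+ALA, HF and Control pools, against 1926, 2002 and 1970 at 4 h (-0.02 ± 0.08, adjusted p = 0.935, 95% interval -0.19 to 0.15). Its second probe set gave -0.05. Flvcr1 had 1614, 1351 and 2200 at 24 h, against 1386, 1447 and 1100 at 4 h. In Control pools it was 2.00-fold higher at 24 h, whereas the differences were 0.22 in HF+SFC+ALA and -0.10 in HF. The fit gave 0.37 ± 0.17 without passing (adjusted p = 0.295). The second, dimmer probe set of Flvcr1 had 129.9, 181 and 238 at 24 h, against 91.8, 133 and 95.8 at 4 h. It was higher at 24 h in every diet, and the fit gave 0.75 (adjusted p = 0.148).

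The 3 calls for fasting depended on the pools and the settings. Without any 1 of the HF or HF+SFC+ALA pools, Hmox1 (adjusted p from 0.0937 to 0.193) and Cd163 (0.111 to 0.227) did not pass, and without either HF+SFC+ALA pool Hp stood at -1.04 (adjusted p = 0.0791 and 0.0949). None of the 3 passed with no filter on signal (adjusted p from 0.334 to 0.474), with probe sets averaged (0.0737 to 0.130), without the intensity trend (0.280 to 0.286) or without diet in the fit (0.108 to 0.552). With quantile normalization Hmox1 (0.0520) and Cd163 (0.0523) did not pass. Averaging left the log2 differences of these 3 genes unchanged, since each has 1 probe set, but changed the other genes, of which 10305 in all were tested. The same holds for Hp in the diet comparisons.

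**Figure D2:**
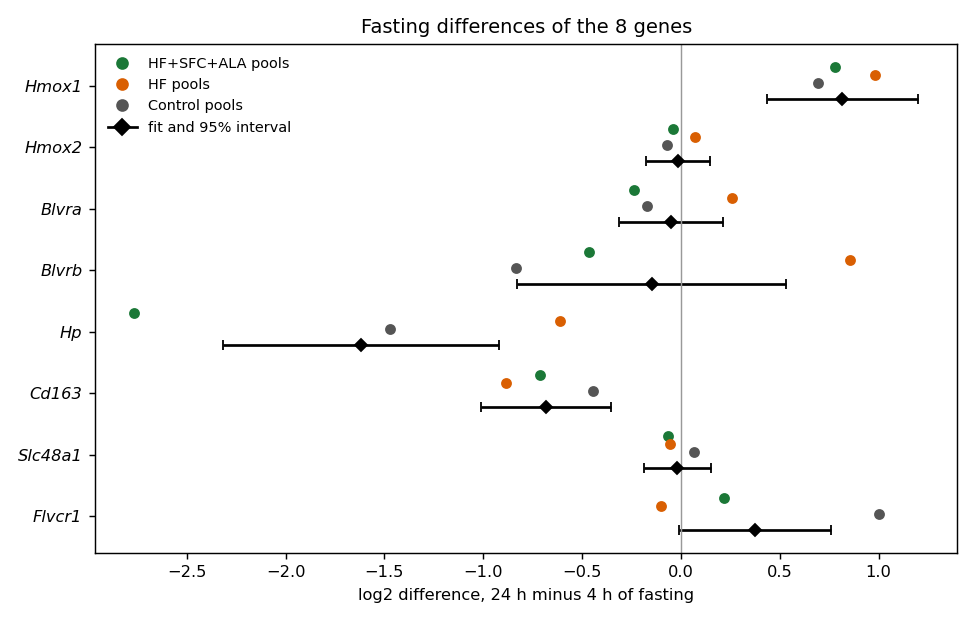
For each gene the coloured circles give the log2 difference between the 24 h and the 4 h pool of a diet, and the black diamond the fit over all diets with its 95% interval. Hmox1 lies right of 0 in every diet, Hp and Cd163 lie left of it, and the circles of Blvrb and Flvcr1 fall on both sides.

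High-fat feeding with and without SFC and ALA was compared next. The series asks how the iron salt with the heme precursor bears on muscle during high-fat feeding. The 3 diet comparisons share arrays, since the HF pools stand in 2 of them, and so do the Control and HF+SFC+ALA pools. Hp was high in both HF pools and much lower in the HF+SFC+ALA pools. No other of the 8 genes passed in any diet comparison.

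For HF+SFC+ALA against HF, Hp had 115 at 24 h and 783 at 4 h in HF+SFC+ALA pools, against 1921 and 2940 in HF pools. Both supplemented pools were below both HF pools, as held in either direction for 28.9% of genes tested. The fitted difference of -2.99 ± 0.38, 7.92-fold lower, ranked lowest of the 11526 genes but did not pass (adjusted p = 0.0562). The pairs gave -4.06 at 24 h and -1.91 at 4 h. With limma 0 of the 8 genes and 0% of all genes tested passed, while 585 genes (5.08%) had an unadjusted p under 0.05, Hp among them. Hp passed when the 4 h pool of HF (-3.74, adjusted p = 0.0102) or of HF+SFC+ALA (-3.85, adjusted p = 0.00521) or either Control pool (-2.99) was left out, and with a filter at the 65th percentile (adjusted p = 0.0381). It did not pass without the 24 h pool of HF+SFC+ALA (-2.12, adjusted p = 0.296) or of HF (-2.23, 0.0976), with no filter on signal (0.741), with probe sets averaged (0.283), without the intensity trend (0.762) or without fasting time in the fit (0.9998).

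Most adipocyte genes had differences of the same sign as Hp. Adipoq, the adipocyte hormone adiponectin, had 796 at 24 h and 1941 at 4 h in HF+SFC+ALA pools, against 4280 and 4637 in HF pools (-1.84, adjusted p = 0.0562). Lep, the hormone leptin, had 70.4 and 195, against 366 and 592 (-1.99, adjusted p = 0.0775). Of the 10 adipocyte markers tested 9 had negative differences, 1, Pparg, had a positive one (0.53), and 0 passed. Their summed signal, mostly of Car3 and Fabp4, was 83014 to 83503 in HF+SFC+ALA pools, against 92215 to 96637 in HF pools. The part of adipocyte RNA in the difference of Hp was not tested. Hepatocyte markers gave little signal: 1 of 5 on the array, Alb, was above the filter, and 2 to 4 were at the floor in these pools. Their summed signal was 152 to 205 in HF+SFC+ALA pools, against 193 to 206 in HF pools.

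None of the other 7 genes passed between HF+SFC+ALA and HF. Hmox1 stood at -0.10 ± 0.21 (adjusted p = 0.987, 95% interval -0.57 to 0.37), with nearly equal signal at 4 h. Hmox2 stood at -0.02 ± 0.09 (interval -0.22 to 0.18) and Slc48a1 at -0.06 ± 0.09 (interval -0.27 to 0.15). Cd163 stood at -0.13 ± 0.18 and Blvra at -0.05 ± 0.14. Blvrb was lower at 24 h (-0.76) and higher at 4 h (0.56). Flvcr1 gave 0.10 ± 0.21, and its second probe set -0.51, so the direction rests on the probe set.

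For HF against Control, Hp had 1921 at 24 h and 2940 at 4 h in HF pools, against 114 and 317 in Control pools, and rose by 3.65 ± 0.38 (12.5-fold, adjusted p = 0.00652). It was the 1 gene of the 8 to pass, beside 0.885% of all genes tested (0.564% higher). Both HF pools lay above both Control pools, as held in either direction for 38.7% of genes tested. In the same comparison 3 of 10 adipocyte markers passed and rose, Adipoq, Lep and Cidec. Of the 10, 7 had positive and 3 negative differences, with a median of 0.20. The 3 negative ones were Plin4 (-0.13), Lipe (-0.13) and Pparg (-0.16). Of the macrophage markers 14 of 14 tested had positive differences without passing. The adipocyte sum, mostly of Car3 and Fabp4, was 92215 to 96637 in HF pools, against 77297 to 84695 in Control pools. The macrophage sum was 5333 to 6520, against 3533 to 4026. The part of either list in the rise of Hp was not tested. The call was lost with no filter on signal (adjusted p = 0.376), with probe sets averaged (0.0529), without the intensity trend (0.302) and without fasting time in the fit (0.290), and kept without any 1 pool. Leaving out HF at 24 h gave 2.89 (adjusted p = 0.0274), and leaving out HF at 4 h gave 4.40 (adjusted p = 0.00153).

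Hmox1 was lower in HF than in Control pools at both times, with 255 at 24 h and 129.5 at 4 h in HF pools, against 338 and 209 in Control pools (-0.55 ± 0.21, adjusted p = 0.274). Over both times the HF and Control pools overlapped. Cd163 gave 0.25 ± 0.18 (adjusted p = 0.551), with 0.03 at 24 h and 0.47 at 4 h, beside the macrophage median of 0.64. Blvrb was higher by 1.21 at 24 h and lower at 4 h, where it stood at -0.48. Flvcr1 did the reverse, with -0.70 at 24 h and 0.40 at 4 h, and its fit was -0.15 ± 0.21. Without the Control pool at 4 h Flvcr1 stood at -0.62, while its second probe set gave 0.04 over all pools. Hmox2, Blvra and Slc48a1 lay between -0.04 and 0.00 without passing.

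For HF+SFC+ALA against Control, Hp was 115 at 24 h in HF+SFC+ALA pools, against 114 in Control pools, and 783 against 317 at 4 h. The fit gave 0.66 ± 0.38 (adjusted p = 0.502, 95% interval -0.19 to 1.52). It turned to -0.20 without the HF+SFC+ALA pool at 4 h, was 1.52 without that at 24 h, and was 0.77 without the Control pool at 24 h. Hmox1 was at least 1.5-fold lower in both pairs (-0.60 at 24 h and -0.69 at 4 h), as were 0.529% of genes tested, but did not pass (-0.64 ± 0.21, adjusted p = 0.294). Flvcr1 gave -0.06 ± 0.21, and without the Control pool at 4 h -0.53. Its second probe set gave -0.47 over all pools. With limma 0 of the 8 genes and 0.0347% of all genes tested passed, and 1 of the 8, Hmox1, had an unadjusted p under 0.05, beside 12.4% of all genes tested. Slc48a1 was lower in both HF+SFC+ALA pools (1838 and 1926) than in both Control pools (2065 and 1970), as held in either direction for 38.5% of genes tested, while its second probe set gave 0.11.

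**Figure D3:**
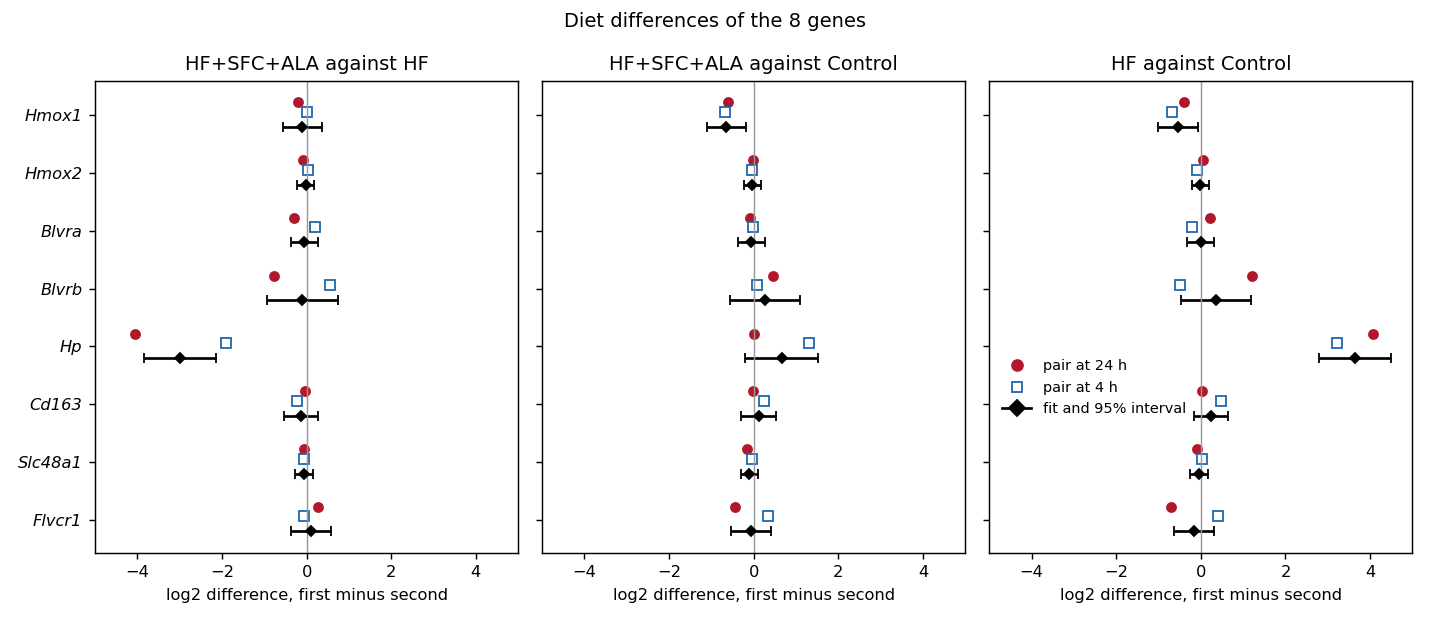
Each panel is a diet comparison, with the log2 difference of the pair of pools at 24 h (filled circle) and at 4 h (open square) and the fit with its 95% interval (diamond). Hp lies far left of 0 in HF+SFC+ALA against HF and far right in HF against Control, and the 2 pairs of Blvrb lie on opposite sides of 0 in both.

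**Figure D4:**
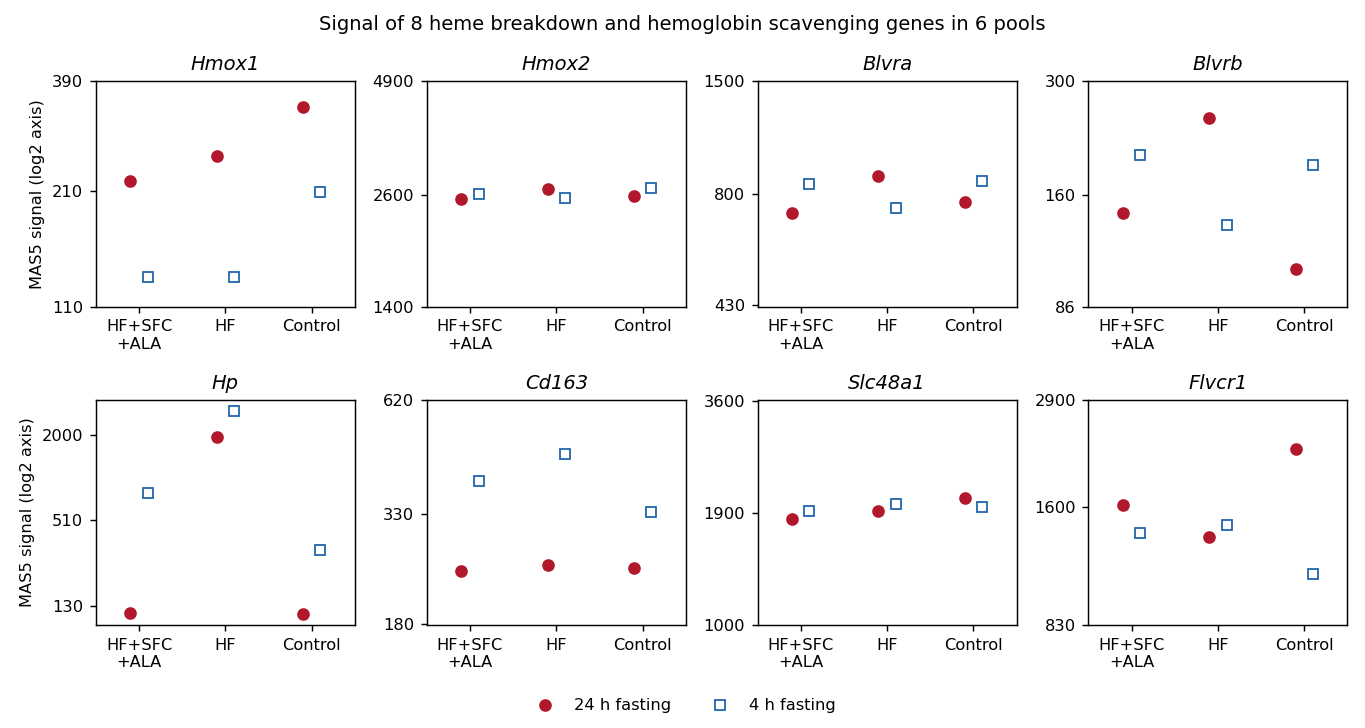
Each panel gives the MAS5 signal of a gene in the 6 pools on a log2 axis, by diet along the horizontal axis, with 24 h as filled circles and 4 h as open squares. Hmox1 is higher and Cd163 lower at 24 h in every diet, Hmox2 and Slc48a1 vary least, and Hp is highest in the HF pools (the Hp axis covers a wider range than the others).

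**Figure D5:**
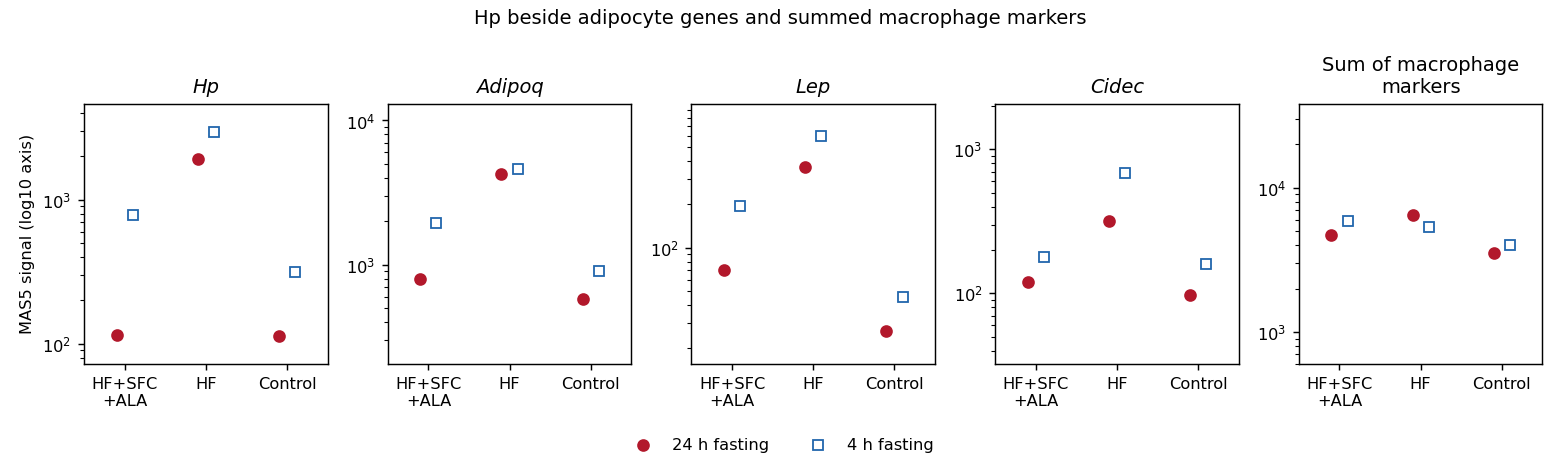
The panels give the MAS5 signal of Hp, of the adipocyte genes Adipoq, Lep and Cidec and of 17 macrophage markers summed. Each panel covers the same number of decades on a log10 axis. The adipocyte genes shown are the 3 of 10 adipocyte markers that passed for HF against Control. Hp, Adipoq, Lep and Cidec are highest in the HF pools, and Lep in the Control pool at 24 h is at the floor. For the 3 adipocyte genes this follows in part from how they were chosen. Of all 10 markers 7 had positive and 3, Plin4, Lipe and Pparg, negative differences for HF against Control, so those shown do not stand for all.

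Other genes of heme and iron handling were read from lists chosen for their known roles, with earlier results of these data known. Of 9 tested genes of heme traffic and heme oxygenase partners 0 passed in any comparison. Slc25a39, a mitochondrial glutathione carrier, stood at -0.19 and Abcg2, an efflux pump that also carries porphyrins, at -0.07 for fasting. Of 14 regulators of Hmox1 and heme sensors, Jun, a subunit of AP-1, rose with fasting (0.72, adjusted p = 0.00236) and fell with HF against Control (-0.57, adjusted p = 0.0176), and 13 did not pass. The median difference of the regulators was 0.17 at 24 h against 4 h and -0.24 between HF and Control. The brightest were Nr1d2, a heme-binding nuclear receptor, at -0.12 for fasting and Atf4, a stress-response factor, at 0.21 (adjusted p = 0.129). Bach1 and Nfe2l2 were named after their values were seen. Bach1, the heme-binding repressor of Hmox1, had 2719.6, 2458 and 3399.7 at 24 h in HF+SFC+ALA, HF and Control pools, against 2630.5, 2478 and 2996 at 4 h (0.07 for fasting, adjusted p = 0.671). Nfe2l2, which encodes the activator NRF2, stood at 0.30 (adjusted p = 0.117).

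Among 16 tested targets of NRF2 and BACH1, Cat, the catalase gene, rose with fasting (0.54, adjusted p = 0.00867), and 0 passed for diet. Of 11 genes of iron release and storage, Tfrc, the transferrin receptor, fell with fasting (-1.39, adjusted p = 0.000651), and 0 passed for diet. Fth1, the ferritin heavy chain that stores the iron which heme oxygenase frees and a member of both lists, stood at 0.01 for fasting, with signals of 45382 to 48042. Alas1, which encodes the first enzyme of heme synthesis, had 2890.1, 2779 and 3530 at 24 h in HF+SFC+ALA, HF and Control pools, against 3524, 3784 and 3918 at 4 h (-0.29, adjusted p = 0.0893). Of 9 acute phase genes tested, a class to which Hp belongs, 0 passed in any comparison. Cebpb stood at 0.01 and Cebpd at 0.48 for fasting, and at -0.13 and -1.35 for HF against Control. Between HF and Control 4 of the 9 had positive and 5 negative differences. The largest rise was that of Saa3 (1.68, adjusted p = 0.103) and the largest fall that of Il1r1 (-1.78, adjusted p = 0.146). Saa3 was near the floor in the Control pool at 4 h (28.9), and Il1r1 in the HF pool at 24 h (27.0). Of 3 globins tested 0 passed, and Mb, the muscle heme protein myoglobin, stood at 0.04 for fasting and Cygb, cytoglobin, at 0.36 (adjusted p = 0.203).

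Genes with the most similar pattern over the 6 pools were found for the 4 members that spanned at least 1 on the log2 scale, among 1550 genes that did so. Pearson's r describes 6 points that share diets and fasting times. Hp was most like Ifi27l2a (r = 0.989), Tmem45b (0.986), Dcakd (0.981) and Adipoq (0.979). Hmox1 was most like Gm38440 (0.979), Gm5785 (0.966), Map2 (0.962) and Bcl7a (0.960). Blvrb was most like Selplg (0.988), Gmppb (0.978), Homer2 (0.975) and Faap24 (0.953), and Flvcr1 like S100a5 (0.980), Zfyve1 (0.966), Zc2hc1c (0.963) and Nectin4 (0.956). Ifi27l2a had 395, 1255 and 371 at 24 h in HF+SFC+ALA, HF and Control pools, against 740.5, 1476 and 659 at 4 h. It was higher in the HF pools than in all others, which follows from its choice for likeness to Hp.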

How the data were processed

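Signals were deposited as linear intensity values, 1 for each probe set on each array; the submitters' processing notes name MAS5, without version or settings. Of 45101 probe sets 64 controls were left out, and 34945 of the others carried 1 gene symbol, updated through the gene identifier (34741 matched). Genes with a mean log2 signal above the median of all non-control probe sets (5.88) were tested. Before log2, a floor at the 30th percentile (26.4) replaced lower signals. Promoter windows came from RefSeq tables of GRCm38.p6.

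Log2 signals were modelled on diet plus fasting time in limma 3.58.1 under R 4.3.3, with moderated variances that follow an intensity trend, 2 residual and 7.27 prior degrees of freedom. Benjamini-Hochberg adjustment ran over all 11526 genes at a threshold of 0.05. The residual holds the spread between pools and any difference in fasting response between diets; with 6 arrays the precision is low. The fit was tested on simulated data, where known changes were recovered with little bias in size, small ones less often than large ones, but the share of false calls was above the threshold, so adjusted p-values just under it are weak support for a call. Settings varied were normalization (quantile), the signal filter (none, or the 65th percentile), the floor (none, or a pseudocount), averaged or other probe sets, the trend, the blocking factor and each pool left out. Named genes are the 8 members, per list the brightest 2 and those past the threshold, Tfrc, Alas1 and Fth1, and the 4 most similar genes per member; markers and genes outside this rule are given for context. The members and lists were chosen with earlier results of these data known.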

Additional observations from a re-analysis of the deposited data

Results flagged for a closer look

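Blvrb and Flvcr1 had differences of opposite sign between groups, and these differences between groups were not tested, since each group is 1 pair of pools. For Blvrb the log2 difference between 24 h and 4 h was 0.85 in HF pools and -0.83 in Control pools. Between HF and Control it was 1.21 at 24 h and -0.48 at 4 h, and between HF+SFC+ALA and HF -0.76 at 24 h and 0.56 at 4 h. For Flvcr1 the difference between HF and Control was -0.70 at 24 h and 0.40 at 4 h, and that between HF+SFC+ALA and Control -0.45 at 24 h and 0.33 at 4 h. On its second probe set HF was also below Control at 24 h (181 against 238) and above it at 4 h (133 against 95.8). There HF+SFC+ALA was below Control at both times, with 129.9 against 238 at 24 h and 91.8 against 95.8 at 4 h.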

How the results depend on the processing

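Among 260 fits of single members under alternatives that keep all 6 pools, 230 kept their direction and side of the threshold, 19 lost and 1 gained the call, and 10 changed sign. The number of members past the threshold for fasting, 3 in the fit as reported, was 1 with quantile normalization and 0 with no filter, averaged probe sets, no intensity trend or no diet in the fit, where 234, 0, 18, 0 and 60 of all genes tested passed, against 278 in the fit as reported. With no floor Cd163 alone of the 3 missed the threshold (adjusted p = 0.0513). For HF against Control the number, 1, was 0 with no filter, averaged probe sets, no trend or no fasting time in the fit, where 0, 1, 0 and 0 of all genes tested passed, against 102. For HF+SFC+ALA against HF, 0 became 1 under the 65th percentile filter, as 6 of all genes tested passed. Leaving out 1 pool gave 0 to 3 members for fasting, 1 to 2 for HF against Control, and 0 to 1 for HF+SFC+ALA against HF and against Control. Without a Control pool the fit drew every spread almost fully to the trend (640.7 and 2278 prior degrees of freedom), so calls made there assume 1 common spread at a given signal.

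None of the values that changed sign passed the threshold. For HF against Control quantile normalization gave 0.0020 for Hmox2 and 0.0088 for Blvra, averaging gave 0.027 for Slc48a1, and the second probe sets gave 0.092 for Slc48a1 and 0.038 for Flvcr1. For HF+SFC+ALA against HF averaging gave -0.20 for Flvcr1, and the second probe sets 0.019 for Slc48a1 and -0.51 for Flvcr1. For HF+SFC+ALA against Control averaging gave 0.0055 and the second probe set 0.11 for Slc48a1.

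Leaving out 1 pool also turned the sign of differences that had not passed. At 24 h against 4 h the range was -0.056 to 0.015 for Hmox2, -0.20 to 0.044 for Blvra, -0.65 to 0.19 for Blvrb and -0.062 to 0.0060 for Slc48a1. Between HF and Control the range was -0.076 to 0.051 for Hmox2, -0.24 to 0.23 for Blvra, -0.39 to 1.11 for Blvrb, -0.10 to 0.026 for Slc48a1 and -0.62 to 0.32 for Flvcr1. Between HF+SFC+ALA and HF the range was -0.22 to 0.024 for Hmox1, -0.085 to 0.042 for Hmox2, -0.29 to 0.18 for Blvra, -0.85 to 0.65 for Blvrb, -0.29 to 0.018 for Cd163 and -0.26 to 0.45 for Flvcr1. Between HF+SFC+ALA and Control the range was -0.076 to 0.0084 for Hmox2, -0.20 to 0.085 for Blvra, -0.25 to 0.78 for Blvrb, -0.20 to 1.52 for Hp, -0.064 to 0.29 for Cd163 and -0.53 to 0.41 for Flvcr1. The fit as reported pairs pools by diet or by fasting time, and the labels carry no replicate numbers to block on.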

Other observations

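Acute phase genes below the signal filter were looked at after their values were seen. Orm1, which encodes the plasma protein orosomucoid, had 26.4 at 24 h and 89.2 at 4 h in HF+SFC+ALA pools, 158 and 172 in HF pools, and 26.4 and 55.3 in Control pools, where 26.4 is the floor. Serpina3n, a protease inhibitor of the acute phase, had 26.4 and 48.9 in HF+SFC+ALA pools, 104 and 105 in HF pools, and 26.4 at both times in Control pools. Of 9 acute phase genes below the filter these and Orm2, near the floor throughout, were the 3 with both HF pools above all other pools. Others were not: Saa2 had 32.2 at 24 h and 48.6 at 4 h in HF pools, against 34.5 and 72.2 in Control pools, and Hpx was at the floor in the HF pool at 24 h, against 65.5 in the Control pool. None of the 9 was tested. The share of all genes with both HF pools above all other pools was not counted, so the 3 of 9 only describe.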
